A study of Rattus norvegicus with 9 samples.

Results

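The genes described here are Ihh and the core of the hedgehog pathway, measured in rat prostate with Agilent one-colour arrays. The 9 members were the ligands Ihh, Shh and Dhh, the receptor Ptch1, the transducer Smo, the ligand-binding inhibitor Hhip and the transcription factors Gli1, Gli2 and Gli3. A probe belonged to a member when its accession was that of the rat gene, and 8 of the 9 members had such a probe, out of 15163 genes with a symbol on the array. The 8 members had 11 probes, with 2 probes each for Ihh, Dhh and Gli2. Hhip had no matching probe and is described here by its promoter only. Ihh was chosen by its difference between BPH+ghrelin and BPH on these arrays, so its differences between groups are given as a description and were not tested.

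Hedgehog ligands are secreted proteins that bind Ptch1 on the receiving cell, which frees Smo from inhibition and lets the GLI transcription factors act. Ptch1, Hhip and Gli1 are themselves target genes, so their transcript levels are the usual readout of the pathway. In the developing prostate, Shh and Ihh are made by the epithelium, and Ptch1 and the GLI genes are expressed mainly in the mesenchyme around it.

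The arrays covered whole prostates of male Sprague Dawley rats, bought at an age of 6 weeks, with 3 arrays in each of 3 groups. Sham rats had a sham castration and were given corn oil under the skin and water by mouth as vehicles. BPH rats, a model of benign prostatic hyperplasia, were castrated and injected daily with dihydrotestosterone (3 mg/kg) for 4 weeks, with water by mouth. BPH+ghrelin rats were castrated, received the same dihydrotestosterone and were in addition fed rat ghrelin (20 nmol/kg daily) during the last 2 weeks, although a legend of the study gives another dose and route for it. Sham rats thus kept their testes and got no hormone, whereas both other groups lacked testes, so that castration and dihydrotestosterone cannot be told apart in the comparison of BPH with sham. The study kept 8 rats per group, and which of them were put on arrays is not stated.

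Values are log2 signals, quantile normalized over the 9 arrays. The probes well above background made up 61.4% of all probes on the array of sham replicate 2 and 69.5% to 75.05% on the other 8 arrays, so that dim members were measured least well in that replicate. All 10 listed markers of prostate luminal epithelium were well above background on all 9 arrays. The summed log2 level of the seminal vesicle markers was 16.5 to 17.3 in sham, 9.48 to 14.8 in BPH and 9.09 to 11.9 in BPH+ghrelin. At most probes, 1 array of each group lay between the other 2 of its group (sham replicate 3 at 72.8% of probes, BPH replicate 2 at 70.6% and BPH+ghrelin replicate 2 at 68.3%). Calls that were lost without one of these arrays are named with each result. In the array headers, the BPH arrays share a scan start with BPH+ghrelin replicate 1, sham replicates 1 and 2 share one with BPH+ghrelin replicates 2 and 3, and sham replicate 3 has its own. No scan start holds both BPH and sham arrays.

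Among the ligands, Ihh was the member with the largest difference between BPH+ghrelin and BPH. Its log2 signal (probe A_43_P15154) was 6.43, 3.36 and 5.97 in the sham replicates 1 to 3, and 6.24, 5.83 and 4.87 in the BPH replicates. In the BPH+ghrelin replicates it was 2.50, 1.30 and 0.61. Signals well above background were found on all 3 BPH arrays, on 2 of 3 sham arrays (not in sham replicate 2) and on 0 of 3 BPH+ghrelin arrays. The BPH+ghrelin arrays were thus all below the BPH arrays, while sham and BPH overlapped. The order of sham replicate 2 and the BPH+ghrelin arrays was not measured, as none of them was well above background, and before normalization the signal of sham replicate 2 (5.50) was below that of BPH+ghrelin replicate 1 (6.57).

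Since no BPH+ghrelin array had a measured level of Ihh, the difference is given as a bound. The bound sets the mean of the brighter group against a limit for the dim group, which is the mean over its arrays of the lowest signal well above background on that array, or of the probe's own signal where that is higher. By this bound, Ihh was at least 7.50-fold lower in BPH+ghrelin than in BPH. The bound against BPH was 6.10-fold to 9.81-fold when each array of these groups was left out. Against sham, the same ratio was 5.71-fold over all 3 sham arrays, which is no bound, since sham replicate 2 was not well above background. It was at least 11.004-fold over sham replicates 1 and 3, 3.79-fold without sham replicate 1 and 4.45-fold without sham replicate 3. The mean signals, including arrays not well above background, were 5.25 ± 1.66 in sham, 5.65 ± 0.70 in BPH and 1.47 ± 0.96 in BPH+ghrelin (SD, n = 3). The difference of mean signals between BPH+ghrelin and BPH was -4.18, which is no measured difference of levels. These values chose Ihh and are no support for it. Within scan starts the signals of BPH+ghrelin differed by -3.15 from BPH (1 against 3 arrays) and by -3.94 from sham (2 against 2 arrays). The BPH+ghrelin signals are again not well above background, and neither is that of 1 of these sham arrays. The difference of signals from BPH was smaller with other ways to treat dim signals, namely -0.79 after normexp background correction with an offset of 50, which compresses low signals, and -3.23 in the table of values that the authors had normalized.

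BPH minus sham was 0.39 for Ihh, and its direction rested on 1 array: without sham replicate 2 it was -0.56. The other Ihh probe (A_64_P065081) was not well above background on any of the 9 arrays, at log2 signals of 0.62 to 1.54, and therefore says nothing on the difference. In whole tissue, fewer cells that express a gene and less RNA per cell cannot be told apart. Beside the lower Ihh signal, the summed log2 level of the luminal epithelium markers was 16.5 to 17.0 in BPH and 16.5 to 16.8 in BPH+ghrelin, so these groups overlapped. That of the proliferating cell markers (6 of 8 with a probe) was 9.54 to 11.4 in BPH and 11.5 to 12.4 in BPH+ghrelin, with 5 of 6 genes higher in BPH+ghrelin without overlap (39.2% of all genes did not overlap, in either direction). The basal epithelium markers (4 of 6 with a probe) went different ways, with Krt15 higher, Krt14 and Krt5 lower in BPH+ghrelin without overlap, and Tp63 overlapping. Their part in the difference of Ihh was not tested.

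Dhh, a ligand best known from Schwann and Sertoli cells, was well above background on all 9 arrays (probe A_64_P009132). Its log2 signal was 7.59, 6.49 and 7.59 in sham, 6.46, 6.90 and 7.22 in BPH and 7.45, 7.56 and 7.49 in BPH+ghrelin. The BPH+ghrelin arrays all lay above the BPH arrays, by 0.64 on average (SE 0.31, 95% interval -0.076 to 1.36), which did not pass the test (limma, adjusted p = 0.280). Against sham, Dhh differed by -0.36 in BPH (adjusted p = 0.472) and by 0.28 in BPH+ghrelin (adjusted p = 0.638). Its other probe (A_44_P639832) was dim, being well above background on 1 of 3 sham, 2 of 3 BPH and 0 of 3 BPH+ghrelin arrays. No bound is given for it, since BPH replicate 3 was not well above background. The dim probe differed in direction from the brighter one. Its BPH minus sham was 0.51 (limma over all probes, adjusted p = 0.495). All its BPH+ghrelin signals lay below all its BPH signals, by 1.69 on average. That is no measured difference, since the dim probe has no measured level in BPH+ghrelin. The summed level of the Schwann cell markers was 9.49 to 10.6 in sham, 10.3 to 10.4 in BPH and 10.3 to 10.5 in BPH+ghrelin, and the Schwann marker Cdh19 was not well above background on any array. Of the 8 Schwann markers, Sox10 was higher and Mbp and Egr2 were lower in BPH+ghrelin against BPH without overlap (39.2% of all genes did not overlap). Their part in the Dhh values was not tested.

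Shh, the ligand with the widest role in development, was at the edge of detection. Its log2 signal was 1.93, 0.57 and 2.52 in sham, 2.71, 2.61 and 1.97 in BPH and 1.01, 1.43 and 2.53 in BPH+ghrelin. Only 2 of 9 arrays, both of BPH, were well above background, and no fold change is given because the BPH mean was below the limit of the other groups. The groups overlapped.

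**Figure D1:**
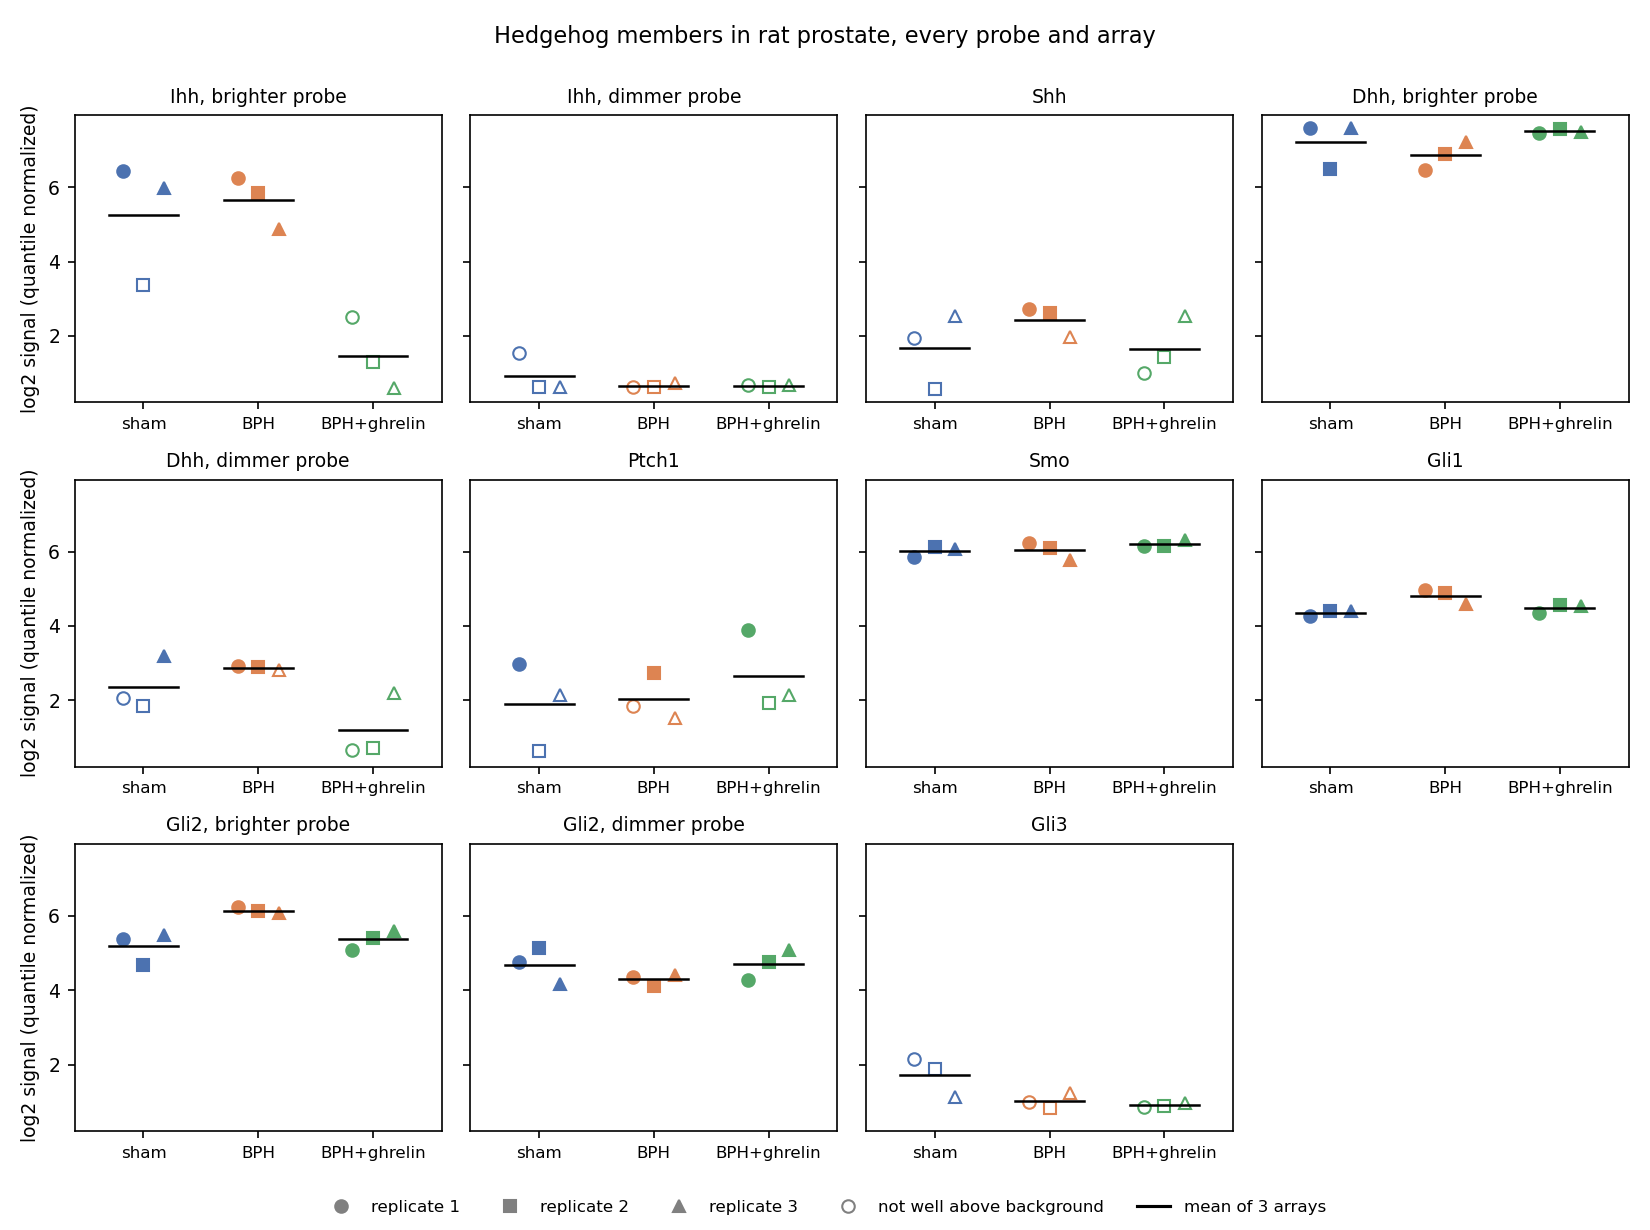
Log2 signal of the members on each array, with 1 panel per probe on a common vertical scale, symbols for replicates 1 to 3 of sham, BPH and BPH+ghrelin, open symbols for arrays not well above background, and bars for group means. Ihh is at 4.87 to 6.24 in BPH and at 0.61 to 2.50 in BPH+ghrelin, and the brighter Gli2 probe (A_44_P868890) is at 6.08 to 6.23 in BPH and at most 5.61 elsewhere.

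On the receiving side of the pathway, no difference passed the test. Ptch1, the receptor and a target of the pathway, was well above background on 1 of 3 arrays in each group, with log2 signals of 0.63 to 2.97 in sham, 1.52 to 2.74 in BPH and 1.92 to 3.88 in BPH+ghrelin. The groups overlapped, and Ptch1 was too dim to be tested, so this readout of the pathway is not given by these arrays. Smo, the membrane protein that passes the signal on, was well above background on all arrays, at 5.84, 6.12 and 6.06 in sham, 6.24, 6.09 and 5.77 in BPH and 6.15, 6.14 and 6.30 in BPH+ghrelin. BPH minus sham was 0.028 (95% interval -0.32 to 0.38, adjusted p = 0.922) and BPH+ghrelin minus BPH was 0.16 (95% interval -0.19 to 0.52, adjusted p = 0.568). These intervals leave room for differences of Smo up to 0.38 and 0.52 on the log2 scale. BPH+ghrelin exceeded sham by 0.19 with no overlap of the arrays (adjusted p = 0.497).

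Among the GLI factors, BPH had the highest mean for Gli1 and for 1 probe of Gli2. Gli1, an activator and a target of the pathway, had log2 signals of 4.26, 4.40 and 4.40 in sham, 4.96, 4.88 and 4.60 in BPH and 4.36, 4.58 and 4.55 in BPH+ghrelin. All BPH arrays lay above all arrays of both other groups. The differences were 0.46 for BPH minus sham (SE 0.14, adjusted p = 0.0924) and -0.32 for BPH+ghrelin minus BPH (SE 0.14, adjusted p = 0.230), neither of which passed the test. BPH+ghrelin and sham differed by 0.14 (adjusted p = 0.588) and overlapped, and this difference was -0.026 with scaling to the 75th percentile.

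Gli2, the factor that activates Gli1 when the pathway is on, was the member apart from Ihh with the largest difference. Its log2 signal (probe A_44_P868890) was 5.37, 4.69 and 5.49 in sham, 6.23, 6.12 and 6.08 in BPH and 5.09, 5.41 and 5.61 in BPH+ghrelin. The BPH arrays were close to one another and above all others. BPH was 1.95-fold higher than sham (log2 0.96, SE 0.23, adjusted p = 0.0549), and BPH+ghrelin minus BPH was -0.77 (SE 0.23, adjusted p = 0.121), so both missed the threshold of 0.05. BPH minus sham passed in the authors' normalized values (adjusted p = 0.0493), with a filter on all 6 arrays (adjusted p = 0.0423) and without sham replicate 1 (adjusted p = 0.0371), and BPH+ghrelin minus BPH passed when only the 6 arrays of these groups were used (adjusted p = 0.0359) and without sham replicate 2 (adjusted p = 0.0262). Neither passed in the other settings, and the adjusted p values were 0.328 and 0.574 with the mean of both probes, 0.452 and 0.331 with scan start as a block, and 0.189 and 0.332 without BPH replicate 2. The other Gli2 probe (A_44_P306728), differed in direction, with BPH minus sham at -0.40 (adjusted p = 0.378) and BPH+ghrelin minus BPH at 0.41 (adjusted p = 0.429). The higher Gli2 signal in BPH was thus seen with 1 of its 2 probes.

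Gli3, mainly a repressor when no ligand is present, was not well above background on any of the 9 arrays (log2 signal 0.84 to 2.14). Beside the GLI factors, the summed log2 level of the smooth muscle markers was 14.1 to 14.9 in sham, 14.1 to 15.1 in BPH and 14.1 to 14.2 in BPH+ghrelin, and that of the fibroblast markers was 13.7 to 14.6, 14.3 to 14.9 and 14.2 to 14.7. The summed levels overlapped between the groups, but single stromal markers did not. Of the fibroblast markers, 5 of 8 (Dcn, Pdgfra, Vim, Lum and Fbln1), and of the smooth muscle markers, 3 of 8 (Myh11, Tagln and Lmod1), had all BPH+ghrelin arrays below all BPH arrays and 0 had them above, where 19.3% of all genes were lower without overlap. This is the direction of Gli1 and of the brighter Gli2 probe. In BPH against sham, 1 of 8 fibroblast markers (Vim) and 1 of 8 smooth muscle markers (Lmod1) were higher without overlap, and 0 were lower. Of all genes, 31.3% did not overlap in that comparison, in either direction, so these markers showed no excess there. Of the 5 endothelium markers with a probe, Pecam1, Cldn5 and Tek were lower without overlap in BPH+ghrelin against BPH (19.3% of all genes), and 0 were higher. Cldn5 and Tek, 2 of these 5, were higher without overlap in BPH against sham, and 0 were lower (31.3% of all genes did not overlap, in either direction). Tek was dim, being well above background on 4 of 9 arrays. The part of the stromal and endothelial cells in the GLI differences was not tested.

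Of the 4 members other than Ihh that could be tested (Dhh, Smo, Gli1 and Gli2), 0 passed an adjusted p of 0.05 in BPH against sham, where 4.33% of 19552 genes did, 0 in BPH+ghrelin against BPH, where 1.48% of 19749 did, and 0 in BPH+ghrelin against sham, where 6.3% of 19197 did (limma). At an unadjusted p under 0.05 the numbers were 2, 2 and 0 of 4, where 26.5%, 21.1% and 23.7% of all genes were. The arrays did not overlap for 2 of 4 members in BPH against sham (31.3% of all genes), for 3 of 4 in BPH+ghrelin against BPH (39.2%) and for 1 of 4 in BPH+ghrelin against sham (30.4%). With so few members, these shares are given as a description.

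**Figure D2:**
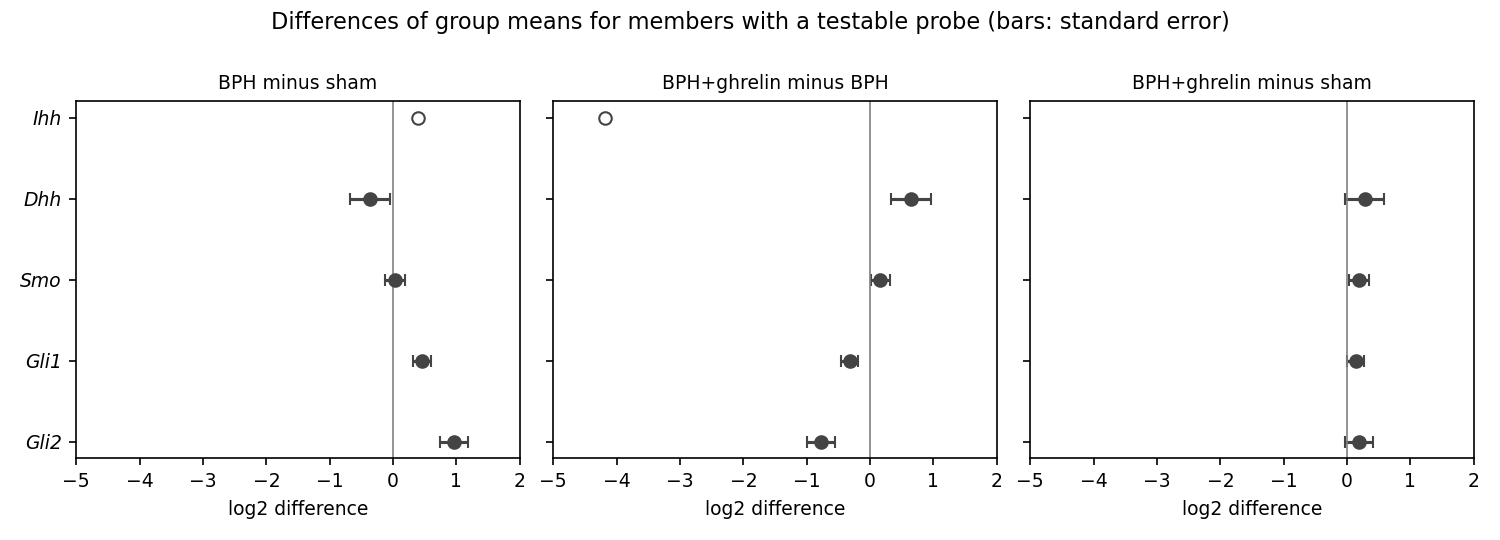
Differences of group means (log2, horizontal axis) for the members that could be tested, 1 panel per comparison, with standard errors as bars and open points without bars for Ihh, which was not tested and has too few arrays above background to appear in BPH+ghrelin minus sham. Gli2 is at 0.96 in BPH minus sham and at -0.77 in BPH+ghrelin minus BPH, whereas Smo is within 0.19 of 0 in all 3 panels.

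Promoters were compared for the letters that GLI factors are known to bind. The sequences are those of RefSeq on assembly GRCr8, from 250 bases before to 50 bases after the start of each gene, and the table used holds Dhh, Ptch1, Smo, Hhip, Gli2 and Gli3 of the members. The full GLI site GACCACCCA, or its reverse complement TGGGTGGTC, was present in 129 of 33469 promoters (0.385%) and, of these members, in Ptch1 only. The shorter core CCACCC (reverse complement GGGTGG), which the full site contains, was present in 29.4% of promoters and in all 6 of these members. The members' promoters had a GC content of 57.3% to 72%, against a median of 51.7% over all promoters, and the part of base composition in this count was not tested. Shown are Ptch1 at chr17:1555321-1555620 (plus strand) for its full site, Gli2 at chr13:32716369-32716668 (minus strand) as the tested member with the largest difference, and Bmp4 at chr15:22101884-22102183 (minus strand) as the target gene that passed in BPH+ghrelin against BPH. Each is written 5′ to 3′ on the strand of its gene, with the letters of the site and core in capitals.
Ptch1: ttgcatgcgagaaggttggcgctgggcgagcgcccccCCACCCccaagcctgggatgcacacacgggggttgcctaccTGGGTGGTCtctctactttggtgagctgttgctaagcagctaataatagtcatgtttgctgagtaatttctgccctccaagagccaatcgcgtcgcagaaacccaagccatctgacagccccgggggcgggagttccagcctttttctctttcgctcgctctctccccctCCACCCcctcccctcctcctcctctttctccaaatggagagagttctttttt
Gli2: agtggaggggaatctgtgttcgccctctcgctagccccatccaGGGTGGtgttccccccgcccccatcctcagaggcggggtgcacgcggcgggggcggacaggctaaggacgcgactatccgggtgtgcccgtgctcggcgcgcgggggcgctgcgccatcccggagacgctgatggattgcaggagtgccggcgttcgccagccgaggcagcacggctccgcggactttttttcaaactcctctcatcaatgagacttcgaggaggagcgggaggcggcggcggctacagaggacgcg
Bmp4: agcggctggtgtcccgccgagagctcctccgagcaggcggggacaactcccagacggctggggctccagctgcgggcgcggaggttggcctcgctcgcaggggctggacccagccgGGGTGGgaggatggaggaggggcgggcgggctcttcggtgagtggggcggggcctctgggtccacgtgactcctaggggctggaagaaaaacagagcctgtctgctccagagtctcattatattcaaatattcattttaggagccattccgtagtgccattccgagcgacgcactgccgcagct
In Ptch1 the full site starts at -172 from the gene start and further cores start at -213 and -2. Gli2 has a core at -207 and Bmp4 has one at -134. The androgen receptor motif AGAACA (reverse complement TGTTCT), found in 20.7% of promoters, was in none of these windows. A match of letters is a description of the sequence and not a binding site.

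Genes that hedgehog signalling is known to switch on in some tissues made up a list of 18 targets, of which 11 had a probe. In BPH against sham, 0 of 11 targets passed (4.33% of all genes; 1 at an unadjusted p under 0.05, 26.5% of all genes), 8 were higher (53.7% of all genes) and 3 lower, and the median difference was 0.046 against 0.039 over all genes. In BPH+ghrelin against BPH, 4 of 11 were higher (51.7% of all genes) and 7 lower, 1 of 11 passed (1.48% of all genes; 5 at an unadjusted p under 0.05, 21.1% of all genes), and the median was -0.30 against 0.015 over all genes. In BPH+ghrelin against sham, 1 of 10 was higher (54.4% of all genes) and 9 lower, 1 passed (6.3% of all genes; 2 at an unadjusted p under 0.05, 23.7% of all genes), and the median was -0.27 against 0.041. Targets without overlap between the arrays numbered 1 of 11 in BPH against sham (31.3% of all genes), 6 of 11 in BPH+ghrelin against BPH (39.2% of all genes), with 5 of them lower (19.3%), and 2 of 10 in BPH+ghrelin against sham (30.4%). The counts in BPH+ghrelin against BPH include Mycn, which was not well above background on any BPH+ghrelin array and was kept through BPH alone. Without it, 5 of 10 targets did not overlap (4 of them lower), 4 of 10 had an unadjusted p under 0.05, and the median was -0.23.

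Bmp4, a secreted growth factor that restrains branching of the prostate, was the 1 target of 11 that passed in BPH+ghrelin against BPH, being lower. Its log2 signal was 5.66, 6.39 and 5.87 in sham, 6.82, 6.47 and 5.86 in BPH and 5.05, 4.92 and 4.47 in BPH+ghrelin, so all BPH+ghrelin arrays lay below all others. It was 2.97-fold lower than in BPH (log2 -1.57, SE 0.29, adjusted p = 0.0468) and differed from sham by -1.16 (adjusted p = 0.0562). The call rested on single arrays: it was lost without BPH replicate 1 (adjusted p = 0.140), BPH replicate 2 (0.220), BPH+ghrelin replicate 1 (0.0810), 2 (0.174) or 3 (0.128), or sham replicate 3 (0.0965), while the difference was between -1.83 and -1.34. With normexp it was -0.62 (adjusted p = 0.0477). With scan start as a block it was -1.33 (adjusted p = 0.420). Beside the lower Bmp4, 5 of 8 fibroblast, 3 of 8 smooth muscle and 3 of 5 endothelium markers were lower without overlap in BPH+ghrelin against BPH. None of these markers was higher without overlap, and 19.3% of all genes were lower without overlap. Their part in the Bmp4 difference was not tested.

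Ccnd2, which encodes the cell cycle protein cyclin D2, had the same order, at 6.88, 6.40 and 6.41 in sham, 6.53, 6.68 and 6.60 in BPH and 5.93, 5.87 and 5.75 in BPH+ghrelin. It fell by 0.72 on the log2 scale against sham (SE 0.15, adjusted p = 0.0361), and BPH+ghrelin minus BPH was -0.76 (SE 0.16, adjusted p = 0.0583). The call against sham was lost without BPH replicate 2 (adjusted p = 0.0810), BPH+ghrelin replicate 1 (0.0851), 2 (0.135) or 3 (0.105), or sham replicate 3 (0.0908). It was also lost with scan start or replicate number as a block, with no filter on dim probes and with 6 arrays only. The lower Ccnd2 stood beside proliferating cell markers that were higher in BPH+ghrelin (11.5 to 12.4) than in sham (9.48 to 10.4).

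Mycn, a growth-promoting transcription factor, was dim, with a signal well above background on 3 of 3 BPH, 1 of 3 sham and 0 of 3 BPH+ghrelin arrays. It was at least 1.79-fold lower in BPH+ghrelin than in BPH, and the fit, which rests on BPH+ghrelin signals that are not measured levels, gave an adjusted p of 0.101. Pax9, a transcription factor of the pharynx and palate, went the other way, with 4.26 to 4.67 in BPH+ghrelin and 3.90 to 4.04 in BPH (difference 0.55, adjusted p = 0.174). For Pax9, BPH minus sham was -0.56 (adjusted p = 0.128), and its other probe had differences of -0.08 and -0.29 in these comparisons. The direct target genes Ptch1 and Gli1, described above, are members and are not in this list.

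**Figure D3:**
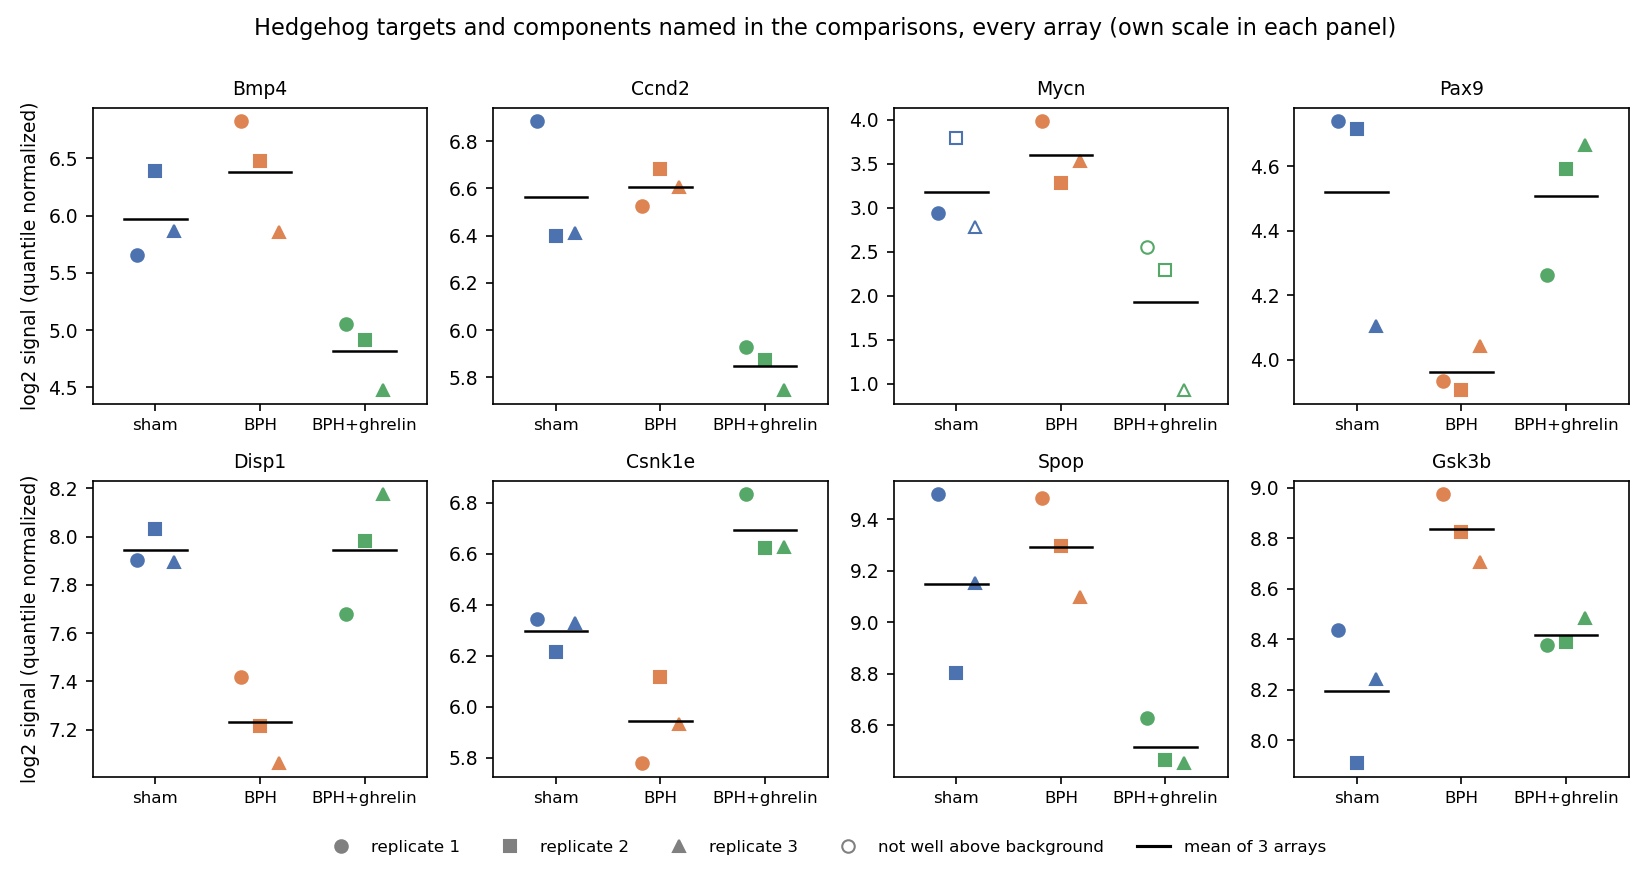
Log2 signal of 8 hedgehog targets and components on each array, with 1 panel per gene and its own vertical scale, symbols for replicates 1 to 3, open symbols for arrays not well above background and bars for group means. Bmp4 and Ccnd2 lie lower on all 3 BPH+ghrelin arrays than on the other 6, and Disp1 lies lower on all 3 BPH arrays.

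Other proteins of the pathway made up a list of 40 components, of which 30 had a probe and 23 could be tested in each comparison. In BPH against sham, 12 of 23 were higher and 11 lower, 1 passed (4.33% of all genes), and the median was 0.10 against 0.039 over all genes. In BPH+ghrelin against BPH, again 12 were higher and 11 lower, 1 passed (1.48% of all genes), and the median was 0.021 against 0.015. In BPH+ghrelin against sham, 12 were higher and 11 lower, 0 passed (6.3% of all genes; 7 at an unadjusted p under 0.05, 23.7% of all genes), and the median was 0.0022 against 0.041. The arrays did not overlap for 7 of 23 in BPH against sham (31.3% of all genes), 10 of 23 in BPH+ghrelin against BPH (39.2%) and 8 of 23 in BPH+ghrelin against sham (30.4%). At an unadjusted p under 0.05 there were 7 of 23 in BPH against sham (26.5% of all genes) and 10 of 23 in BPH+ghrelin against BPH (21.1%). Components thus showed no common direction, and Cdon and Kif7 were not well above background on any array.

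Disp1, which releases the lipid-anchored ligand from the cell that makes it, had its lowest signals in BPH. Its log2 signal was 7.90, 8.03 and 7.90 in sham, 7.42, 7.21 and 7.06 in BPH and 7.68, 7.98 and 8.17 in BPH+ghrelin. It fell by 0.71 in BPH against sham (SE 0.16, adjusted p = 0.0486), BPH+ghrelin minus BPH was 0.71 (SE 0.16, adjusted p = 0.0710), and BPH+ghrelin minus sham was 0.0022 (95% interval -0.36 to 0.37). The call was lost without BPH replicate 1 (adjusted p = 0.0578), 2 (0.189) or 3 (0.130), BPH+ghrelin replicate 2 (0.104) or 3 (0.0594), or sham replicate 2 (0.0736) or 3 (0.140). It was also lost with no filter on dim probes (0.0692), with 6 arrays only (0.102) and with the replicate number as a block (0.108). With scan start as a block it was -0.34 (adjusted p = 0.956).

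Among the kinases that phosphorylate GLI proteins or Smo, 1 passed the test. Csnk1e (probe A_64_P040498), a casein kinase 1, was at 6.35, 6.22 and 6.33 in sham, 5.78, 6.12 and 5.93 in BPH and 6.83, 6.62 and 6.63 in BPH+ghrelin. It rose by 0.75 in BPH+ghrelin against BPH (SE 0.13, adjusted p = 0.0390), but its other probes gave 0.50 (adjusted p = 0.329) and -0.34 (adjusted p = 0.350), and their mean 0.30 (adjusted p = 0.379). The call was lost without any 1 BPH or BPH+ghrelin array (adjusted p 0.0593 to 0.166) and without sham replicate 3 (0.0934). It was also lost with no filter on dim probes (0.0552), with the replicate number as a block (0.106) and with scan start as a block (difference 0.89). For the other kinases of this kind, BPH+ghrelin minus BPH was -0.60 for Csnk1a1 (adjusted p = 0.221), 0.061 for Csnk1d (0.836), 0.13 for Prkaca (0.729), -0.70 for Prkacb (0.656, dim on all but 1 of the BPH+ghrelin arrays), -0.42 for Gsk3b (0.184) and 0.39 for Grk2 (0.159). Gsk3b, which marks GLI proteins for processing, was at 8.44, 7.91 and 8.24 in sham and 8.97, 8.83 and 8.71 in BPH, a difference of 0.64 (SE 0.16, adjusted p = 0.0582). Grk2, a kinase of Smo, was 8.52 to 8.78 in sham and 8.99 to 9.29 in BPH+ghrelin (difference 0.50, adjusted p = 0.0662).

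Spop and Cul3, which together form a ubiquitin ligase that removes Gli2 and Gli3 protein, had their lowest group means in BPH+ghrelin, with no difference that passed the test. Spop was at 9.50, 8.80 and 9.15 in sham, 9.48, 9.30 and 9.10 in BPH and 8.63, 8.46 and 8.45 in BPH+ghrelin, with BPH+ghrelin minus BPH at -0.78 (SE 0.19, adjusted p = 0.0875). Its BPH+ghrelin arrays were all below the others. For Cul3, BPH+ghrelin minus sham was -0.60 (adjusted p = 0.0727). Sufu, the inhibitor that holds GLI proteins in the cytoplasm, was at 5.24, 5.46 and 5.20 in sham and 4.74, 4.96 and 4.90 in BPH (difference -0.44, adjusted p = 0.0865). Mgrn1, a ubiquitin ligase that limits Smo at the cell surface, differed by 0.66 between BPH and sham (adjusted p = 0.104), and the endocytic receptor Lrp2 differed by -0.60 (adjusted p = 0.159), its other probe by -0.19. Sufu was picked here after its values were seen.

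**Figure D4:**
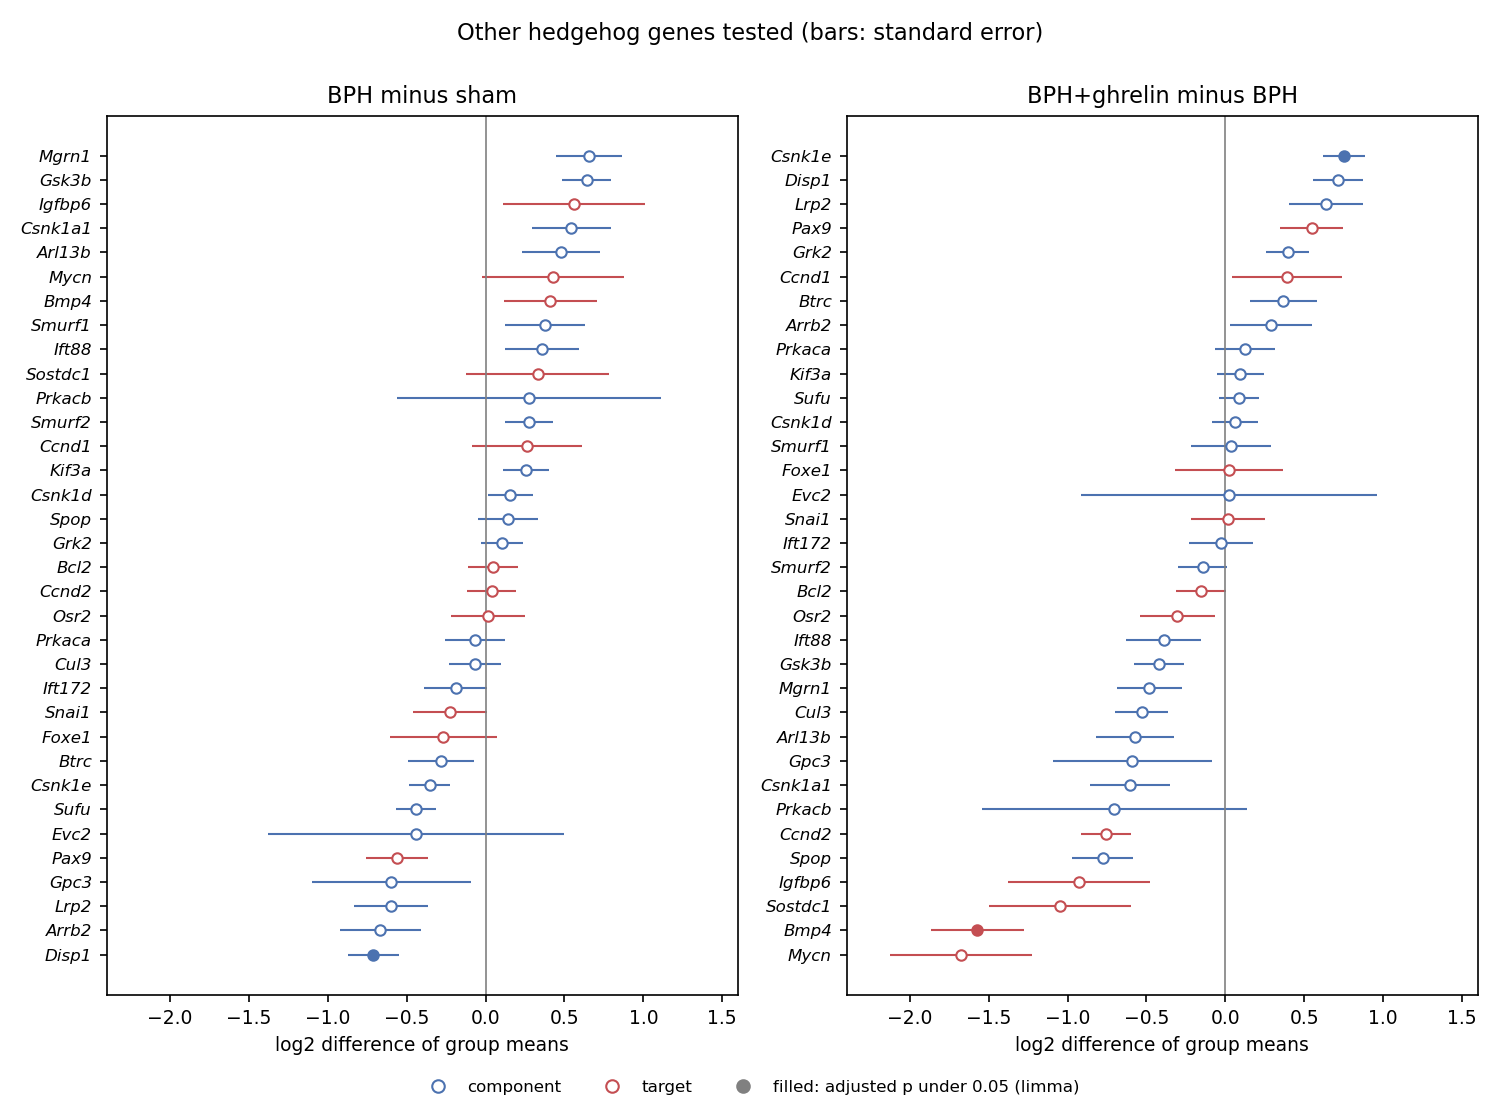
Differences of group means (log2, horizontal axis) of the 34 hedgehog components (blue) and targets (red) tested in BPH minus sham and in BPH+ghrelin minus BPH, sorted by size, with standard errors as bars and filled points for an adjusted p under 0.05. In BPH+ghrelin minus BPH, Bmp4 and Sostdc1 have measured differences beyond a 2-fold decrease, where 3.2% of all genes lie, and the difference drawn for Mycn is of a group not well above background, for which the bound is 1.79-fold.

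Spop was also among the genes whose pattern was most like that of Ihh. Over the 9 arrays and 11790 genes with a symbol, the highest Pearson correlations with Ihh were those of Dkk3 (0.986), Trim5 (0.977), Sspn (0.976), Spop (0.975) and App (0.973). All 5 were well above background on all 9 arrays, whereas Ihh was not on 4 of 9, so the correlations rest in part on Ihh signals that are not measured levels. Dkk3, a secreted protein of the dickkopf family, was at 8.47, 7.95 and 8.35 in sham, 8.45, 8.21 and 8.15 in BPH and 7.57, 7.30 and 7.04 in BPH+ghrelin. For Gli1 the highest were Arhgap17 (0.957), Wdr93 (0.947), Aqp2 (0.945), Chac2 (0.943) and Gtf2e2 (0.942). None of these genes was among the 5 most like Ihh. The 9 arrays share the 3 groups and the scan starts, and the correlations are a description of the pattern with no test.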

How the data were processed

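The authors deposited, for each of the 9 arrays, the output of Feature Extraction 11.0.1.1, whose processed signal is a background-subtracted intensity on a linear scale that was not normalized between arrays. The authors also deposited a table of log2 values, quantile normalized in GeneSpring GX 12.1, which was used as an alternative. Outlier spots (313 to 741 per array) were removed, spots of a probe were averaged (11 of 30367 probes were dropped), and log2 signals were quantile normalized. The raw median signal was 19.0 to 58.2, and the number of arrays limits the precision. Accessions of 17998 probes (59.3%) matched RefSeq genes of assembly GRCr8 (the array headers name rn4), which was used for names and promoters. Genes were tested when, of the 6 arrays compared, at least 3 had a signal well above background, each by its brightest passing probe, with limma 3.58.1 in R 4.3.3 (3 groups, 9 arrays, Benjamini-Hochberg adjustment over all genes). An exact permutation test of 3 against 3 arrays cannot go under 0.1. The test was tried on simulated data.

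Members, lists and tests were chosen with earlier results of these data known. Of the lists, genes were named that passed, or the 2 largest rises and falls without overlap, and the 5 most like Ihh and Gli1. Marker levels are the log2 of summed linear signals. Alternatives were 75th percentile scaling, normexp (on median signals, since the files hold no mean signal), other filters, the mean of probes, 6 arrays only, replicate number or scan start as a block, the authors' table, eBayes with trend and robust, and each array left out. Probes in place of genes were added after the values were seen. A listed component is not reported here by name.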

Additional observations from a re-analysis of the deposited data

How the results depend on the processing

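Of the members other than Ihh, 0 passed in any comparison, and 1 passed in BPH against sham with a filter on all 6 arrays and with the authors' table, and 1 in BPH+ghrelin against BPH with 6 arrays only. Leaving out each array gave 0 to 1, 0 to 1 and 0 to 0 members in BPH against sham, BPH+ghrelin against BPH and BPH+ghrelin against sham. Of the components and targets, 1 passed in BPH against sham (2 with normexp, 2 with a filter on all 6 arrays, 1 with no filter, which was not Disp1, 0 with 6 arrays only, 0 with scan start as a block, 0 to 4 leaving out an array, with 4 without sham replicate 1, where 3082 genes were called in all). In BPH+ghrelin against BPH it was 2 (4 with normexp, 0 with no filter, 1 with the mean of probes, 9 with 6 arrays only, 0 with scan start as a block, 0 to 9 leaving out an array, with 9 without sham replicate 2, where 2061 genes were called in all). In BPH+ghrelin against sham it was 1 (3 with 75th percentile scaling, 2 with normexp, 0 with no filter, 2 with a filter on all 6 arrays, 0 with 6 arrays only, 0 with scan start as a block, 0 to 6 leaving out an array, with 6 without sham replicate 2, where 1921 genes were called in all). The number of called genes over the whole array moved as well, from 847, 293 and 1210 to 2, 2 and 84 with scan start as a block to 180, 2106 and 909 with 6 arrays only and to 1020, 389 and 1231 with normexp.

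The replicate numbers did not pair the arrays (correlations of same-numbered arrays -0.14 to 0.26), and with the replicate number as a block 0 members and 0 components or targets passed in each comparison, with 243, 17 and 461 genes called in all. The calls of Bmp4, Csnk1e and Ccnd2 were lost with this block (adjusted p = 0.0795, 0.106 and 0.0788) and with no filter (0.0677, 0.0552 and 0.0569). All of them were also lost with scan start as a block (Bmp4 as given above, Csnk1e 0.266 and Ccnd2 0.195). That of Ccnd2 was lost with 6 arrays only (0.0799).

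Scaling to the 75th percentile moved the median difference of all genes by -0.13 in BPH against sham and the share of called genes that were higher from 49.7% to 32.0%, and in BPH+ghrelin against BPH from 33.4% to 47.2% (45.0% with normexp). The direction changed for BPH minus sham of Ihh (-0.79 with scan start as a block, -0.56 to 0.98 leaving out an array), of Dhh (0.076 with the mean of probes) and of Smo (-0.039 with 75th percentile scaling, -0.072 to 0.16 leaving out an array). It changed for BPH+ghrelin minus sham of Gli1 (-0.026 with 75th percentile scaling and -0.025 with normexp), of Dhh (-0.084 to 0.46 leaving out an array) and of Gli2 (-0.058 to 0.35). The causes were not tested. Depth of signal limits Ptch1, Shh and Gli3, which were too dim to compare, and the second probes of Ihh and Dhh.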
